A study of Mus musculus with 15 samples.

Results

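The transcripts described here encode the ATP-dependent chromatin remodelers of mouse myoblasts. They were taken as every probe set whose only gene symbol in the platform annotation starts with Smarc, with Arid or Chd followed by a digit, or with Ino80, or is Atrx, Ep400, Srcap or Hells. This gave 73 probe sets of 41 genes, out of 25175 probe sets and 19452 genes on the array. A gene with more than 1 was represented by the one whose mean over the 0 min arrays was highest. The same letters also take in 7 Arid3, Arid4 and Arid5 genes, which encode DNA-binding proteins that share the ARID domain and are not themselves remodeler subunits. They are kept because the rule names them. Counts over all members include them, and the main counts are also given for the remodeler ATPases and subunits alone.

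The cells were proliferating C2C12 (LKO-1), a line of mouse myoblasts carrying the empty knockdown vector and held below confluence so that they did not fuse into myotubes. All samples received actinomycin D, which binds DNA and stops transcription, at 8 µg/mL. The 0 min sample had already been in the drug for 30 min, and none was left without it. The later samples followed after 10, 50, 110 and 230 min, in 3 replicate time courses, and each of the 15 samples was hybridized to its own Affymetrix Mouse Gene 1.0 ST array. The methods describe the time course as an experiment done in triplicate. Neither they nor the labels name separate cultures, so part of the spread between these repeats in a single cell line may be technical. The p-values of trends and contrasts measure the scatter of arrays about values shared by the time courses. Those of gene pairs rest on the order of times within each time course. Neither kind is taken from the spread of slopes between time courses, which is given as an SD where shown.

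Chromatin remodelers use ATP to slide, evict or exchange nucleosomes, and so set which stretches of DNA can be read. Their motor subunits all descend from the same SNF2-type ATPase and fall into 4 families: BAF (SWI/SNF), ISWI, CHD and INO80. Most work in large complexes in which alternative paralogs fill the same position, such as Arid1a or Arid1b in BAF. In muscle precursors BAF complexes are known to act with MyoD at muscle genes. After transcription is blocked, the level of a transcript over time reflects how long the existing molecules last.

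Values are linear ratios of a probe set to the 5th percentile of its own array, and a ratio near 1 thus marks the dim end of the array. The whole array declined: the median over all probe sets was 2.59 ± 0.160 at 0 min, 2.37 ± 0.195 at 10 min, 2.27 ± 0.234 at 50 min, 1.79 ± 0.176 at 110 min and 1.59 ± 0.140 at 230 min (SD, n = 3 arrays each). Replicate 1 was the lowest at 110 min and replicate 2 at 230 min, with 75th percentiles of 3.90 and 2.89. All 6 myoblast markers and the 3 matched proliferation markers were above the array median at 0 min, as were 5 of 6 myotube markers and 2 of 6 fibroblast and adipocyte markers (Pdgfra and Pparg), while Thy1, Adipoq, Fabp4 and Plin1 were not. The summed ratios of the fibroblast and adipocyte markers were 9.44 to 12.6 at 230 min against 22.1 to 26.1 at 0 min, those of the myotube markers 10.5 to 19.5 against 20.6 to 39.9, and those of the myoblast markers 51.3 to 81.0 against 112 to 145. The part of these other markers in the results below was not tested. In bulk RNA, fewer cells of a type and less RNA per cell cannot be told apart.

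Of the 41 genes, 36 had a ratio above the array median at 0 min in at least 2 of 3 replicates and entered the tests with 12544 probe sets in all. All 36 fell over the time course, in a limma trend of log2 ratio against time with the time course as a block (adjusted p from 6.3e-17 to 0.0012), and 0 rose (0 also at an unadjusted p under 0.05). Of all probe sets tested, 96.4% fell and 0.0239% rose, so falling was shared by nearly every transcript on the array. Most of the 36 transcripts fell more steeply than the median of that background, as did most of the related genes described at the end. The difference from the background was not tested. Their median slope was -0.32 log2 per hr, against -0.25 log2 per hr over all probe sets, and 29 of 36 were steeper than the median of all. In the separate time courses the median slope of the 36 was -0.32, -0.40 and -0.30 log2 per hr (SD 0.0530, n = 3). For the 31 remodeler ATPases and subunits alone, without the 5 other ARID transcripts, the median was -0.32 log2 per hr and 25 of 31 were steeper than the median of all.

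How many transcripts are called as falling depended on what the arrays were scaled to, since a scaling adds the same amount to every slope and leaves their order as it is. When each array was divided by its own median, the median slope of the 36 was -0.14 log2 per hr and that of all probe sets -0.07 log2 per hr, 26 of 36 fell and 0 rose (0 also at an unadjusted p under 0.05), against 37.8% and 1.96% of all probe sets. When each array was divided by its 75th percentile, 13 of 36 fell and 7 rose, against 15.7% and 50% of all probe sets, and median slopes were -0.00 log2 per hr for the 36 and 0.07 log2 per hr for all. Of the 31 remodeler ATPases and subunits, 22 fell relative to the array median, and with the 75th percentile 11 fell and 6 rose. Slopes also varied with the level at 0 min. Among the probe sets tested, split into 4 equal bands of 0 min level, the 36 were steeper than the median of their own band in 2 of 3, 7 of 9, 13 of 15 and 8 of 9 cases, in order of rising level. In the third band, which held the most of them, 14 of 15 fell relative to the array median, against 49.6% of all probe sets in the band, and in the highest band 3 of 9 did, against 23.2%.

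The decline did not pass the test at the early times. At 10 min 0 of 36 transcripts were lower than at 0 min (0% of all probe sets; 0 of the 36 at an unadjusted p under 0.05), and at 50 min again 0 were (1.99% of all). At 50 min 8 were lower at an unadjusted p under 0.05 (9.72% of all probe sets), 5 of them remodelers, and 0 were higher with or without adjustment (0.0239% of all after adjustment). They were Arid5b, Chd7, Smarcad1, Arid5a, Ino80d, Chd2, Arid4b and Chd1, with log2 differences of 50 min minus 0 min between -0.69 ± 0.212 for Arid5b (SE, limma adjusted p = 0.061) and -0.46 ± 0.217 for Chd1 (adjusted p = 0.43). At 110 min and at 230 min all 36 were lower, against 84.8% and 94.3% of all probe sets. Without the 110 min array of replicate 1, 30 of 36 were lower at 110 min, and 36 still fell in the trend. Relative to the array median, 16 of 36 were lower at 110 min (17% of all) and 19 of 36 at 230 min (28.6% of all). With arrays divided by their 75th percentile, 2 of 36 were lower at 50 min (2.85% of all), 10 at 110 min (9.71%) and 13 at 230 min (14.5%).

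The raw ratios give the same order without a model. All 3 arrays at 50 min lay below all 3 arrays at 0 min for 11 of 36 transcripts (16.5% of all probe sets), at 110 min for 31 (72.9% of all) and at 230 min for 34 (84.3% of all). Of the 31 remodelers these were 7, 26 and 29. The 2 whose 230 min and 0 min arrays still overlapped were Smarcc1 and Hells. The mean at 230 min was between 17.2% and 62.3% of the mean at 0 min.

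**Figure D1:**
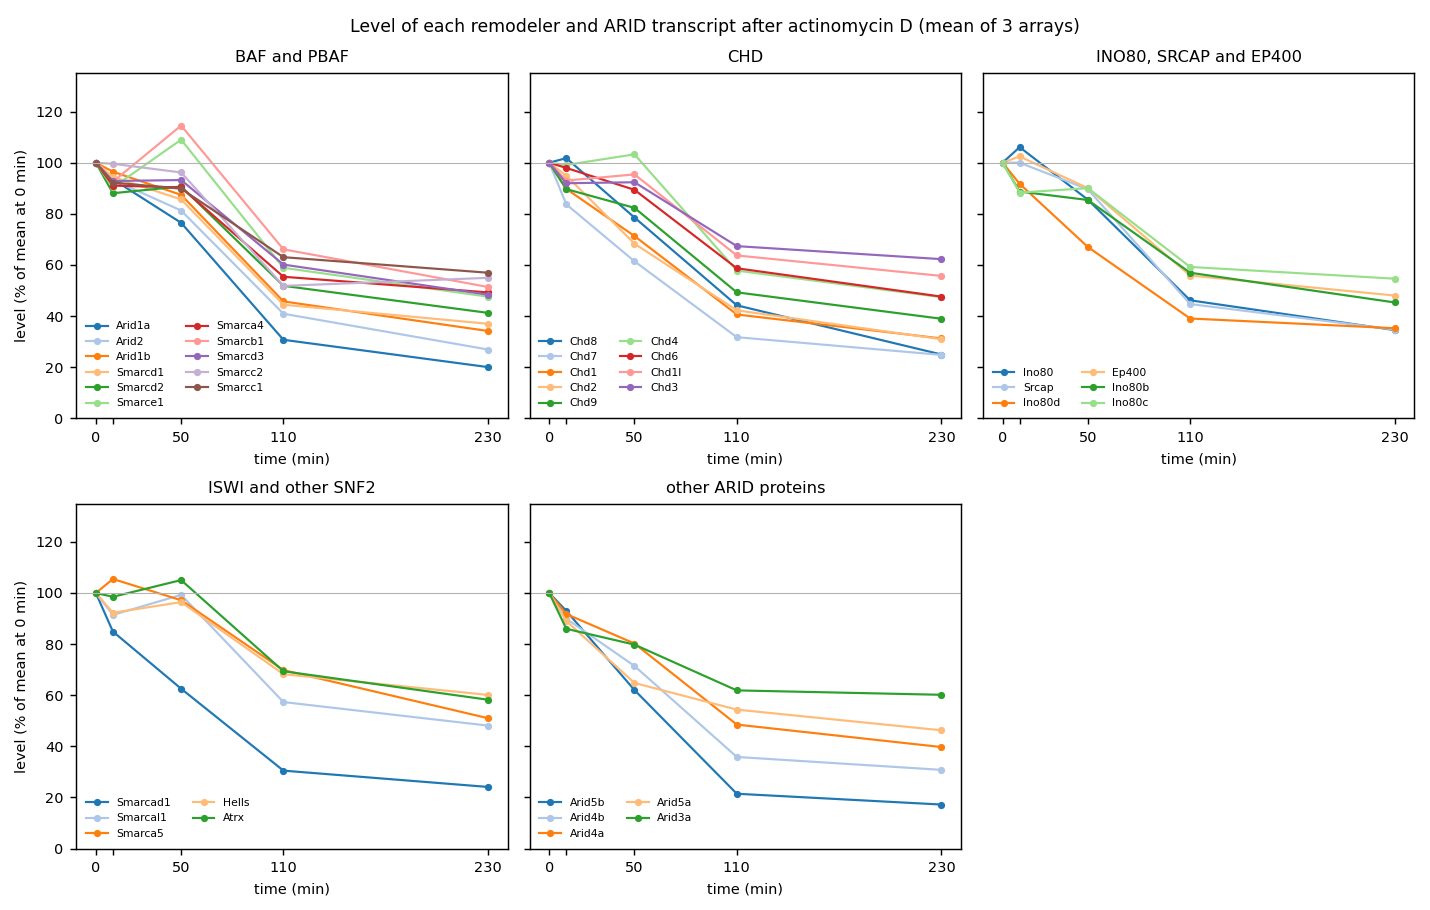
Mean ratio of each of the 36 transcripts (3 arrays per time) as a percentage of its own mean at 0 min, against time in min, by family. On this deposited scale all 36 end between 17.2% and 62.3%, with Arid5b, Arid1a, Smarcad1, Chd7 and Chd8 lowest in their panels. Chd7 is drawn from the steepest of its 30 probe sets.

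**Figure D2:**
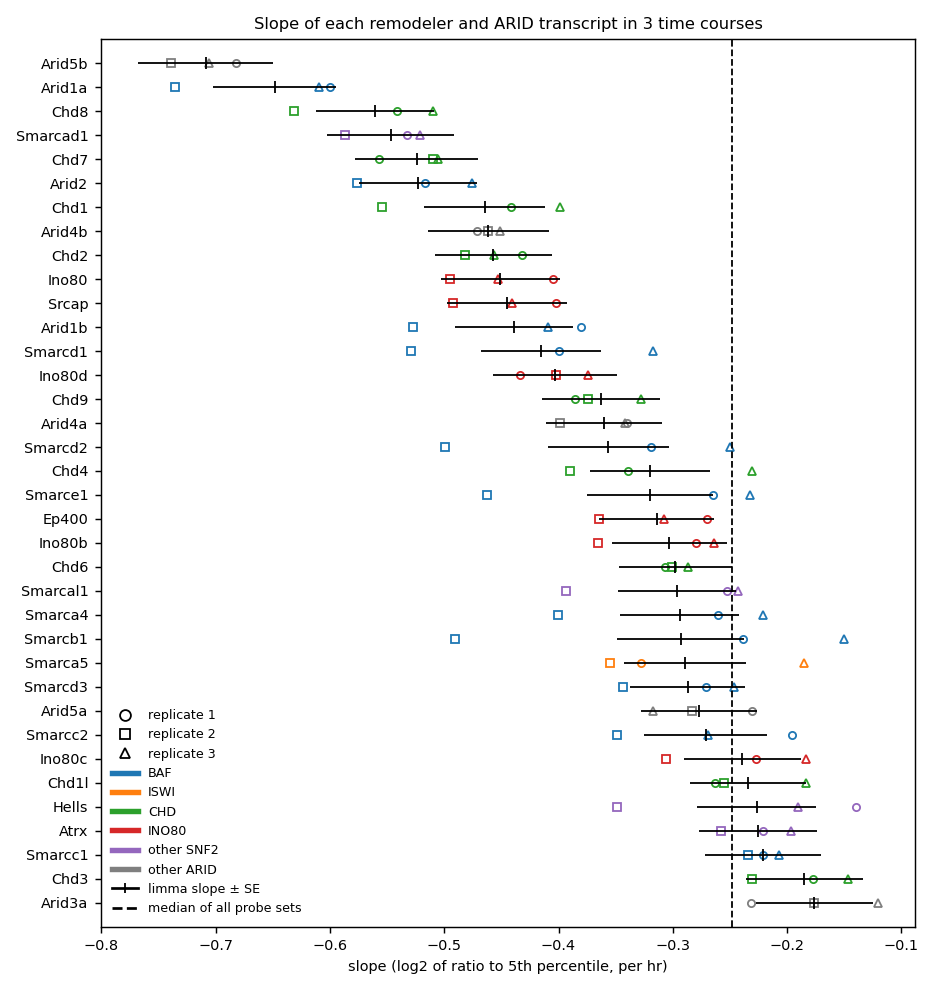
Slope of log2 ratio per hr for each of the 36 transcripts, steepest at the top: open symbols are the 3 time courses, coloured by family, the black tick and bar the limma slope ± SE, and the dashed line the median of all probe sets (-0.25). On the deposited scale every slope is below 0 and 29 lie left of the line; with arrays divided by their 75th percentile 17 of the 36 slopes are above 0.

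In the BAF complexes, 11 of 12 genes passed the level filter, all 11 fell, and 8 fell also relative to the array median. The ARID subunits had the steepest slopes and the scaffold subunits the shallowest. Arid1a, the DNA-binding subunit that defines canonical BAF, had 12.4, 13.2 and 13.0 at 0 min, 14.7, 10.5 and 10.9 at 10 min, 9.68, 8.47 and 11.4 at 50 min, 3.79, 3.90 and 4.17 at 110 min and 3.13, 1.84 and 2.76 at 230 min. All 3 arrays were below the 0 min arrays at every time from 50 min on, and 20.0% of the 0 min mean was left at 230 min. Its slope was -0.65 ± 0.0536 log2 per hr (SE, adjusted p = 6.3e-17), and only 1.33% of all probe sets tested were steeper. Arid2, the matching subunit of PBAF, had 19.5, 14.5 and 16.4 at 0 min, 19.2, 12.4 and 15.4 at 10 min, 12.3, 12.9 and 15.8 at 50 min, 6.06, 6.65 and 7.90 at 110 min and 5.42, 3.16 and 4.97 at 230 min. The 50 min arrays still overlapped those at 0 min, and the later ones did not. Its slope was -0.52 ± 0.0517 log2 per hr (adjusted p = 6.4e-14). Arid1b, which takes the place of Arid1a in a separate set of BAF complexes, had a slope of -0.44 ± 0.0517 log2 per hr.

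The BAF ATPase Smarca4 (BRG1) was at 14.3 ± 5.29 at 230 min against 29.0 ± 5.97 at 0 min (SD, n = 3 each), a slope of -0.29 ± 0.0520 log2 per hr, near the median of all probe sets. The core subunit Smarcb1 had the widest spread between time courses (SD of the 3 slopes 0.177, slopes -0.24, -0.49 and -0.15 log2 per hr). Its level at 50 min was 115% of that at 0 min, a log2 difference of 0.20 ± 0.223 (adjusted p = 0.96), and its change relative to the array median missed the threshold (-0.11 log2 per hr, adjusted p = 0.12). Smarce1, an HMG-box subunit, was at 21.3 ± 8.55 at 230 min against 44.8 ± 9.70 at 0 min, with a slope of -0.32 ± 0.0554 log2 per hr. Its 3 probe sets had slopes between -0.32 and -0.30 log2 per hr, and 2 of the 3 fell also relative to the array median.

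The scaffold subunits Smarcc1 (BAF155) and Smarcc2 (BAF170), on which BAF is assembled, were among the 8 shallowest. Smarcc1 had 34.3, 17.2 and 28.1 at 0 min, 30.2, 15.7 and 27.5 at 10 min, 24.4, 20.5 and 26.7 at 50 min, 15, 14.9 and 20.3 at 110 min and 19.4, 9.25 and 16.7 at 230 min. Replicate 2 started low, so the 230 min array of replicate 1 lay above it, and the slopes within the time courses were nonetheless alike (SD 0.0136). The fitted slope was -0.22 ± 0.0509 log2 per hr (adjusted p = 7.9e-05), and -0.04 log2 per hr relative to the array median (adjusted p = 0.45). Smarcc2 had 20.9, 19.1 and 21.7 at 0 min, 21.6, 20.7 and 19.1 at 10 min, 17.98, 20.6 and 20.7 at 50 min, 8.47, 11.5 and 11.97 at 110 min and 14.4, 8.56 and 10.9 at 230 min. The ranges of the first 3 times overlapped, and all arrays at 110 min and 230 min were lower. The slope was -0.27 ± 0.0537 log2 per hr (adjusted p = 7.5e-06). With arrays divided by their 75th percentile both slopes turned positive, at 0.10 and 0.05 log2 per hr, and the rise of Smarcc1 passed the test (adjusted p = 0.0024).

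The Smarcd subunits (BAF60a, b and c) link BAF to transcription factors, and Smarcd3 is the form known from heart and skeletal muscle. Their slopes were -0.42 ± 0.0528 for Smarcd1, -0.36 ± 0.0528 for Smarcd2 and -0.29 ± 0.0503 log2 per hr for Smarcd3. Smarcd1 had 14.7, 12.1 and 12.4 at 0 min, 15.7, 9.64 and 11.7 at 10 min, 11.3, 9.96 and 12.3 at 50 min, 5.46, 5.50 and 6.46 at 110 min and 5.86, 2.87 and 5.76 at 230 min. Smarcd3 had 12.1, 10.5 and 8.74 at 0 min, 10.9, 8.93 and 9.24 at 10 min, 9.24, 10.5 and 9.51 at 50 min, 5.53, 6.72 and 6.60 at 110 min and 6.08, 4.16 and 4.91 at 230 min. Both were below their 0 min arrays in all 3 arrays at 110 min and at 230 min.

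Among the ISWI ATPases, only Smarca5 (SNF2H), which spaces nucleosomes, passed the filter. It was at 10.3 ± 3.84 at 230 min against 20.3 ± 5.43 at 0 min (SD, n = 3 each), with a slope of -0.29 ± 0.0532 log2 per hr. Relative to the array median the slope was -0.11 log2 per hr and missed the threshold (adjusted p = 0.063). Its 0 min and 110 min arrays overlapped, since the 110 min array of replicate 3 was at 21.4 against a lowest 0 min value of 15.35.

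The 4 other SNF2 ATPases split widely. Smarcad1, an ATPase with roles in heterochromatin and DNA end resection, had 13.9, 8.50 and 13.1 at 0 min, 12.4, 8.90 and 8.88 at 10 min, 6.34, 7.32 and 8.58 at 50 min, 3.09, 3.64 and 4.11 at 110 min and 3.54, 2.00 and 3.03 at 230 min. All arrays at 110 min and 230 min were below all at 0 min, and 24.1% of the 0 min mean was left at 230 min. The slope was -0.55 ± 0.0555 log2 per hr (adjusted p = 1.6e-13). Smarcal1, an annealing helicase at stalled replication forks, had a slope of -0.30 ± 0.0520 log2 per hr.

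Hells and Atrx, both tied to silent chromatin, were shallow. Hells (LSH), which helps DNA methylation at repeats, had 24.6, 17.7 and 24.9 at 0 min, 25.9, 13.1 and 23.0 at 10 min, 24.9, 15.1 and 24.9 at 50 min, 13.3, 9.89 and 22.7 at 110 min and 19.5, 6.43 and 14.5 at 230 min. Replicate 3 was still near its starting level at 110 min, and 230 min and 0 min arrays overlapped. The slope was -0.23 ± 0.0520 log2 per hr (adjusted p = 7.5e-05). Atrx, which deposits a histone variant with Daxx, had 10.0, 8.13 and 10.0 at 0 min, 12.1, 7.48 and 8.20 at 10 min, 8.56, 11.3 and 9.72 at 50 min, 5.71, 6.53 and 7.29 at 110 min and 6.46, 4.30 and 5.63 at 230 min. The 110 min and 230 min arrays were all below those at 0 min, and the slope was -0.23 ± 0.0514 log2 per hr (adjusted p = 7.0e-05). Relative to the array median neither passed the test (adjusted p = 0.39 for Hells and 0.45 for Atrx), and with arrays divided by the 75th percentile both rose, by 0.09 log2 per hr each (adjusted p = 0.010 and 0.012).

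The CHD family, named for its chromodomains, had 9 of 10 genes past the filter. All 9 fell, 7 of them also relative to the array median, and their median was -0.36 log2 per hr. Chd8, a regulator of Wnt targets known for mutations in autism, had 14.7, 10.0 and 11.9 at 0 min, 15.4, 10.4 and 11.3 at 10 min, 9.71, 9.82 and 9.16 at 50 min, 4.50, 5.50 and 6.14 at 110 min and 3.97, 2.03 and 3.11 at 230 min. The 50 min arrays were already all below those at 0 min, and 24.9% of the 0 min mean was left at 230 min. The slope was -0.56 ± 0.0514 log2 per hr (adjusted p = 3.9e-15). Chd7, an enhancer-bound remodeler mutated in CHARGE syndrome, had 12.7, 6.98 and 11.8 at 0 min, 11.02, 7.0 and 8.29 at 10 min, 6.98, 6.16 and 6.16 at 50 min, 3.44, 3.53 and 3.00 at 110 min and 2.97, 1.93 and 2.89 at 230 min. All 110 min and 230 min arrays were below those at 0 min, and the slope was -0.52 ± 0.0539 log2 per hr (adjusted p = 2.7e-13).

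Chd7 is the gene with the most probe sets, 30, and all 30 passed the filter and fell, 29 of them also relative to the array median. Their slopes ran from -0.52 to -0.28 log2 per hr, with a median of -0.40. The probe set used here was thus the steepest of the 30, and the one with the second highest mean at 0 min had -0.44 log2 per hr. Their means at 0 min were 10.5 ± 3.06 and 10.5 ± 1.54 (SD, n = 3 each). At -0.44 or -0.40 log2 per hr Chd7 would not be among the 8 steepest, of which Arid4b, the last, was at -0.46. The half-life and the 50 min difference of Chd7 were also taken from the probe set used.

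Chd1, which binds a methyl mark on active promoters, had 17.4, 9.91 and 13.8 at 0 min, 15.3, 9.55 and 12.1 at 10 min, 10.5, 8.08 and 10.7 at 50 min, 4.53, 4.86 and 7.31 at 110 min and 5.79, 2.36 and 4.69 at 230 min. Its 110 min and 230 min arrays did not overlap with those at 0 min. The slope was -0.46 ± 0.0532 log2 per hr (adjusted p = 1.0e-11), and its close relative Chd2 had -0.46 ± 0.0514 log2 per hr. Chd9 and Chd6, relatives of Chd7 and Chd8, had -0.36 ± 0.0517 and -0.30 ± 0.0495 log2 per hr. A dimmer probe set of Chd6, at 2.77 ± 0.325 at 0 min (SD, n = 3), had -0.27 ± 0.0520 log2 per hr. Relative to the array median it missed the threshold (adjusted p = 0.056).

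The NuRD ATPases had slopes shallower than the CHD median of -0.36 log2 per hr, as did Chd6 and Chd1l. Chd4 (Mi-2 beta), the main motor of the NuRD deacetylase complex, had 53.6, 35.6 and 46.6 at 0 min, 54.1, 39.9 and 40.5 at 10 min, 44.7, 48.8 and 46.8 at 50 min, 23.9, 26.4 and 28.1 at 110 min and 24.1, 14.6 and 25.7 at 230 min, a slope of -0.32 ± 0.0521 log2 per hr. Its ratio was held through 50 min and was below all 0 min arrays on every array after that. Chd3 (Mi-2 alpha) had 20.1, 17.8 and 17.2 at 0 min, 18.1, 17.1 and 15.4 at 10 min, 14.5, 17.6 and 18.8 at 50 min, 8.91, 14.6 and 13.6 at 110 min and 13.0, 9.64 and 11.7 at 230 min. It kept 62.3% of its 0 min mean at 230 min, the most of the 36, though all 3 arrays at 230 min were below those at 0 min. Its slope was -0.18 ± 0.0511 log2 per hr (adjusted p = 7.3e-04), -0.00 log2 per hr relative to the array median (adjusted p = 0.95) and 0.13 log2 per hr with arrays divided by the 75th percentile (adjusted p = 5.6e-05).

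Chd1l (ALC1), a remodeler recruited to sites of DNA damage by poly(ADP-ribose), had 5.66, 3.75 and 5.19 at 0 min, 5.51, 3.69 and 4.38 at 10 min, 4.87, 3.89 and 5.17 at 50 min, 2.51, 2.50 and 4.29 at 110 min and 3.10, 2.02 and 3.01 at 230 min. The 110 min array of replicate 3 lay above the lowest 0 min array, and at 230 min none did. Its slope was -0.23 ± 0.0508 log2 per hr (adjusted p = 3.3e-05).

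All 6 genes of the INO80 family passed the filter and fell, 5 of them also relative to the array median. Ino80, an ATPase which repositions nucleosomes, had a slope of -0.45 ± 0.0522 log2 per hr, and Srcap, which loads a histone variant into promoters, -0.45 ± 0.0523. Ep400, the ATPase of the TIP60 acetyltransferase complex, had -0.31 ± 0.0505 log2 per hr. Among the small INO80 subunits, Ino80d was at 3.05 ± 0.401 at 230 min against 8.67 ± 0.199 at 0 min (SD, n = 3 each; -0.40 ± 0.0542 log2 per hr) and Ino80b at 2.70 ± 0.520 against 5.96 ± 0.203 (-0.30 ± 0.0503 log2 per hr). Ino80c had 7.58, 5.13 and 7.56 at 0 min, 6.95, 5.08 and 5.87 at 10 min, 6.0, 5.95 and 6.30 at 50 min, 3.37, 3.67 and 4.96 at 110 min and 4.38, 2.43 and 4.26 at 230 min. It was the shallowest of the 6, at -0.24 ± 0.0513 log2 per hr (adjusted p = 2.8e-05), did not pass relative to the array median (adjusted p = 0.27), and rose with arrays divided by the 75th percentile (0.08 log2 per hr, adjusted p = 0.0064).

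The ARID proteins outside BAF held both the steepest and the shallowest slope of the 36. Arid5b, a DNA-binding partner of the histone demethylase Phf2, had 14.1, 12.04 and 12.9 at 0 min, 13.2, 12.1 and 11.02 at 10 min, 7.41, 9.29 and 7.51 at 50 min, 2.41, 3.15 and 2.81 at 110 min and 2.63, 1.98 and 2.11 at 230 min. Every array from 50 min on was below every array at 0 min, and 17.2% of the 0 min mean was left at 230 min. Its slope was -0.71 ± 0.0591 log2 per hr (adjusted p = 9.3e-17), and 0.765% of all probe sets were steeper. Arid4b, a subunit of the Sin3 deacetylase complex, had 6.31, 4.68 and 5.64 at 0 min, 5.18, 4.85 and 4.93 at 10 min, 3.78, 4.30 and 3.80 at 50 min, 1.82, 1.83 and 2.31 at 110 min and 1.83, 1.59 and 1.70 at 230 min. It too was below its 0 min arrays from 50 min on, with a slope of -0.46 ± 0.0531 log2 per hr (adjusted p = 1.2e-11). Arid4a, its paralog in the same complex, had -0.36 ± 0.0510 log2 per hr.

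Arid3a (Bright), a transcription factor known from B cells, had 3.00, 3.09 and 2.62 at 0 min, 3.07, 2.10 and 2.32 at 10 min, 2.63, 1.76 and 2.56 at 50 min, 1.53, 2.06 and 1.80 at 110 min and 1.79, 1.54 and 1.91 at 230 min. All arrays at 110 min and 230 min were below those at 0 min, within a narrow range close to the dimmest probe sets. Its slope was -0.18 ± 0.0512 log2 per hr (adjusted p = 0.0012), 0.00 log2 per hr relative to the array median (adjusted p = 0.93) and 0.14 log2 per hr with arrays divided by the 75th percentile (adjusted p = 0.0033). Arid5a, which in immune cells binds and stabilizes cytokine mRNAs, had a slope of -0.28 ± 0.0507 log2 per hr.

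Half-lives were obtained by fitting an exponential decay to the linear ratios of each time course, and were taken as reliable when the fit passed (p of the decay rate under 0.05) and its 95% confidence interval was narrower than 2 times the half-life in at least 2 of 3 time courses. This held for 8 of 36 transcripts, 7 of them remodelers, against 11.2% of all probe sets. The 8 were 5 CHD transcripts (Chd1, Chd2, Chd6, Chd7 and Chd8) together with Arid2, Ino80b and Arid5b. Their median was 1.81 hr (109 min), against 2.20 hr over the 1400 probe sets with a reliable half-life, and 6 of the 8 were shorter than that median. Without Arid5b the median was 1.82 hr. The study, with like criteria and its own detection filter, reported reliable half-lives for far more mRNAs and a longer median. The reason for that gap was not tested. These half-lives depend on the scaling and the decay curve. With arrays divided by their median 0 of 36 were reliable (2.50% of all), with the 75th percentile 1 was (2.08% of all; 287 min), and with a constant floor of 1 in the curve 6 were (12.3% of all; median 71.8 min).

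Arid5b had the shortest half-life, 62.7 ± 10.9 min (SD, n = 3 time courses), with 52.7, 74.3 and 61.0 min in the 3 time courses and the criteria met in all of them. Chd8 also met them in all 3, with 80.4, 118 and 118 min and a mean of 105 ± 21.7 min. The other CHD transcripts had 87.7 ± 29.3 min for Chd7, 108 ± 22.3 min for Chd2, 113 ± 29.6 min for Chd1 and 190.2 ± 30.8 min for Chd6. The value of Chd7 comes from the steepest of its 30 probe sets. Arid2 had 109 ± 24.9 min and Ino80b 189 ± 20.0 min. All these means and SDs take in all 3 time courses, also those that did not meet the criteria. For Ino80b that includes replicate 1, whose interval had no upper end. The mean ± SD of Chd7, Chd8, Chd2, Arid2 and Chd1 overlapped each other, those of Ino80b and Chd6 lay above them, and that of Arid5b overlapped only Chd7.

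A steep slope did not always give a reliable half-life. Smarcad1 (83.3 ± 24.5 min) and Arid1a (83.7 ± 11.6 min) met the criteria in 1 of 3 time courses, with intervals that reached 369 and 342 min in replicate 3. The longest fitted mean was that of Arid3a, 324 ± 129 min, with intervals that had no upper end in any time course. Replicate 1 gave the fewest fits that met the criteria, 4 of 36 transcripts (4.37% of all probe sets), against 13 (24.3%) in replicate 2 and 12 (22.3%) in replicate 3. With a replicate left out, both remaining time courses had to meet the criteria, a stricter rule. The count of reliable half-lives was then 2 without replicate 2 (2.87% of all) and 4 without replicate 3 (2.26% of all).

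**Figure D3:**
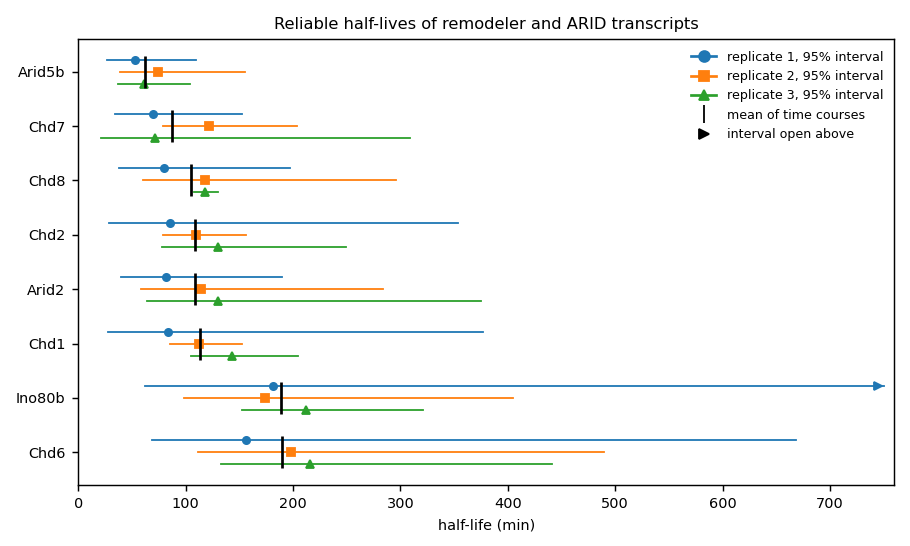
Half-life in min of the 8 transcripts with a reliable value: coloured symbols are the 3 time courses, each with its 95% profile confidence interval, black ticks their means, and the arrowhead an interval with no upper end. The means run from 62.7 min for Arid5b to 190.2 min for Chd6, and the intervals of single time courses are wide beside the differences between genes.

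Related members, most of them alternative subunits of a complex or close homologs with separate roles, were compared on the same array, as the slope of the log2 ratio of one to the other, which does not depend on how arrays were scaled. Of 18 pairs listed, 15 had both genes past the filter and were tested by an exact two-sided permutation test (times permuted within each time course, 3 time courses), with Benjamini-Hochberg adjustment over the 15. The difference passed for 11 of 15, and levels of different probe sets were not set against each other.

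Arid1a fell faster than Arid1b. Arid1b had 10.97, 11.3 and 10.3 at 0 min, 12.2, 9.95 and 9.23 at 10 min, 8.87, 10.2 and 9.36 at 50 min, 4.38, 4.94 and 5.56 at 110 min and 4.68, 2.90 and 3.53 at 230 min. Of the 0 min mean, 20.0% was left at 230 min for Arid1a and 34.1% for Arid1b. The slope of Arid1a minus that of Arid1b was -0.22, -0.21 and -0.20 log2 per hr in the 3 time courses (mean -0.21, SD 0.0097; exact permutation p = 5.8e-05, adjusted p = 7.0e-04). The spread between time courses was thus far smaller than the difference. Arid1b in turn fell less steeply than Arid2, by 0.08 ± 0.0460 log2 per hr (SD, n = 3; exact permutation test, adjusted p = 0.0028), a call lost without replicate 1 (0.06 log2 per hr, adjusted p = 0.050) and without the 230 min arrays (adjusted p = 0.15).

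Ep400 fell less steeply than Srcap. Ep400 had 9.77, 7.13 and 8.89 at 0 min, 10.6, 6.73 and 9.12 at 10 min, 7.49, 7.13 and 8.60 at 50 min, 4.79, 4.61 and 5.0 at 110 min and 5.28, 2.79 and 4.31 at 230 min. Srcap had 17.2, 10.8 and 15.7 at 0 min, 19.8, 10.6 and 13.2 at 10 min, 12.8, 11.6 and 14.7 at 50 min, 6.65, 5.53 and 7.31 at 110 min and 6.95, 3.21 and 4.97 at 230 min. The difference of Ep400 minus Srcap was 0.13 log2 per hr in each of the 3 time courses (SD 0.0023; exact permutation p = 2.6e-04, adjusted p = 9.7e-04), the smallest spread of the 15 pairs.

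The widest difference was that of Arid5a minus Arid5b, 0.45, 0.46 and 0.39 log2 per hr (mean 0.43, SD 0.0373; exact permutation p = 2.3e-04, adjusted p = 9.7e-04). Arid5a had 3.95, 3.65 and 3.53 at 0 min, 3.57, 3.00 and 3.34 at 10 min, 2.44, 2.03 and 2.74 at 50 min, 1.91, 1.97 and 2.17 at 110 min and 2.10, 1.54 and 1.51 at 230 min. It thus ran close to the dimmest probe sets, where a ratio cannot fall far, and with 1 subtracted from every ratio, an alternative chosen after seeing the data, the difference was 0.42 log2 per hr (adjusted p = 0.0041).

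In the CHD family, Chd8 minus Chd9 was -0.20 ± 0.0530 log2 per hr (SD, n = 3; exact permutation test, adjusted p = 7.0e-04, and 0.056 without the 230 min arrays). Chd9 had 9.60, 7.17 and 6.25 at 0 min, 8.64, 5.78 and 6.22 at 10 min, 6.46, 6.61 and 5.88 at 50 min, 3.12, 4.42 and 3.80 at 110 min and 3.67, 2.52 and 2.77 at 230 min. Of the 0 min mean, 24.9% was left at 230 min for Chd8 and 38.9% for Chd9. Chd7 minus Chd9 was -0.16 ± 0.0224 log2 per hr (exact permutation test, adjusted p = 0.0091), a call lost without replicate 1 (adjusted p = 0.098) and without replicate 2 (adjusted p = 0.059). Of the 30 probe sets of Chd7, 21 were steeper than Chd9, with a median difference of -0.03 log2 per hr, so this comparison rests on the probe set used. None of the 30 was steeper than Chd8. Chd6 minus Chd9 was 0.06 ± 0.0204 log2 per hr (exact permutation test, adjusted p = 0.048), which was lost when any of the 3 replicates was left out (adjusted p = 0.12 to 0.13). It was lost too without the 0 min arrays (adjusted p = 0.16), without the 230 min arrays (adjusted p = 0.15) and with 1 subtracted from every ratio (adjusted p = 0.10).

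Chd3 minus Chd4 was 0.14 ± 0.0442 log2 per hr (SD, n = 3; exact permutation test, adjusted p = 0.0048), with Chd3 the shallower in 3 of 3 time courses, and was not called without replicate 1 (adjusted p = 0.050) or without the 230 min arrays (adjusted p = 0.17). Among the BAF60 paralogs, Smarcd1 minus Smarcd3 was -0.13 ± 0.0573 log2 per hr (exact permutation test, adjusted p = 0.0028) and Smarcd2 minus Smarcd3 -0.07 ± 0.0785 (adjusted p = 0.018), so that the muscle form was the shallowest of the 3. Both calls were lost without replicate 2 (adjusted p = 0.059 and 0.32), and the second also without replicate 1 (adjusted p = 0.064). The second was lost as well without the 0 min arrays (adjusted p = 0.11) and without the 230 min arrays (adjusted p = 0.056). In replicate 3 the difference of Smarcd2 minus Smarcd3 was only -0.0036 log2 per hr. Arid4a minus Arid4b was 0.10 ± 0.0342 log2 per hr (exact permutation test, adjusted p = 0.024), lost without replicate 1 (adjusted p = 0.16) and without replicate 3 (adjusted p = 0.11). That call was also lost without the 0 min arrays (adjusted p = 0.14) and with 1 subtracted from every ratio (adjusted p = 0.16). Both genes ended close to the dimmest probe sets, with means of 1.64 for Arid4a and 1.71 for Arid4b at 230 min.

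The remaining pairs did not pass. Smarcd1 minus Smarcd2 was -0.06 ± 0.0265 log2 per hr (SD, n = 3; exact permutation test, adjusted p = 0.070), Smarcc1 minus Smarcc2 0.05 ± 0.0704 (adjusted p = 0.26), Chd7 minus Chd8 0.04 ± 0.0741 (adjusted p = 0.54) and Chd1 minus Chd2 -0.01 ± 0.0650 (adjusted p = 0.81). For the last 3 the time courses did not all have the same sign. Without the 230 min arrays the difference of Smarcc1 and Smarcc2 was 0.21 log2 per hr and passed (adjusted p = 0.042). Arid1a with Arid1b, Arid5a with Arid5b and Ep400 with Srcap were the 3 pairs that stayed past the threshold in all 8 alternatives run for the pairs, which include leaving out each replicate.

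**Figure D4:**
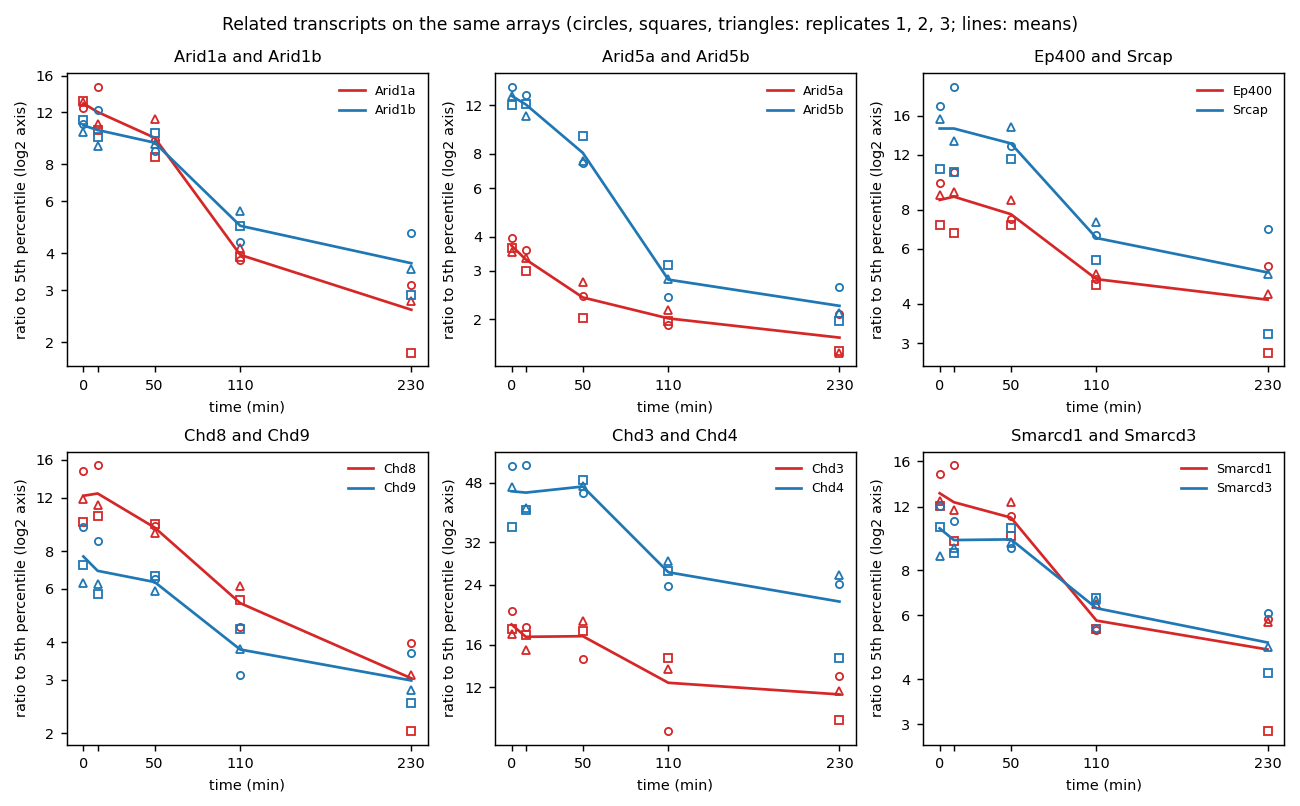
Ratio to the 5th percentile (log2 axis) against time in min for 6 pairs of related members, with circles, squares and triangles for replicates 1, 2 and 3 and lines for their means. After 50 min the line of Arid1a drops more steeply than that of Arid1b, and that of Ep400 less steeply than that of Srcap. Heights of different genes are not comparable.

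**Figure D5:**
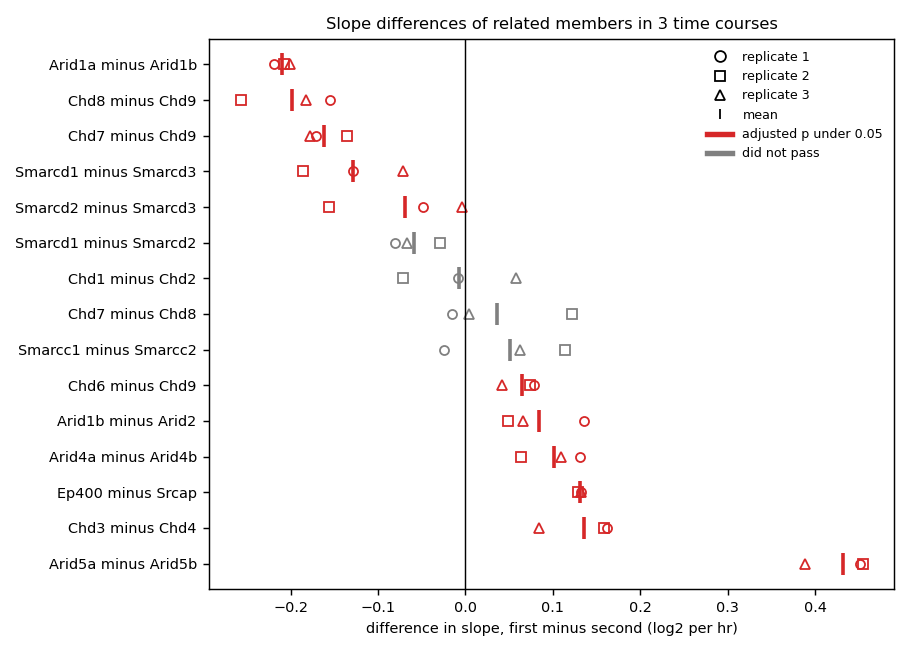
Difference in slope (log2 per hr, first gene minus second) for the 15 pairs tested, with a symbol per time course and a bar at the mean, in red where the exact permutation test passed after adjustment (11 pairs). For Ep400 minus Srcap the 3 symbols coincide near 0.13, and for Chd7 minus Chd8 they lie on both sides of 0.

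Other subunits of these complexes, taken from 4 lists of 60 genes, were tested in the same fit. All 57 past the filter fell and 0 rose (0 also at an unadjusted p under 0.05), and their slopes had a median of -0.31 log2 per hr. Relative to the array median 33 of 57 fell (37.8% of all probe sets), and with arrays divided by their 75th percentile 17 fell and 18 rose (15.7% and 50% of all). The ISWI partners had the steepest median, -0.37 log2 per hr over 8 genes. Baz2a was at -0.43, Bptf, the largest NURF subunit, at -0.42, and Pole3, the shallowest, at -0.22 log2 per hr. The 24 partners of INO80, SRCAP and TIP60 had a median of -0.32, from the actin-related Actr8 at -0.53 to Morf4l1 at -0.16 log2 per hr. Among 14 BAF partners (median -0.28), Dpf2, a PHD-finger subunit of canonical BAF, was at -0.56 log2 per hr and Bcl7c at -0.13 log2 per hr. The 11 NuRD partners had the shallowest median, -0.25 log2 per hr, with the methyl-DNA-binding Mbd2 at -0.49 and the deacetylase Hdac1 at -0.16 log2 per hr. A further list of 10 SNF2 ATPases that the rule does not name had a median of -0.28, from Ercc6 at -0.43 to Hltf at -0.15 log2 per hr. All 10 fell, 5 of them relative to the array median.

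The 5 genes below the level filter were the second BAF ATPase Smarca2 (BRM), the second ISWI ATPase Smarca1 (SNF2L), the neural Chd5, and Arid3b and Arid3c. Smarca2 was at 1.45 ± 0.145 at 230 min against 1.76 ± 0.202 at 0 min (SD, n = 3 each). Smarca1 stayed between 0.940 and 1.11 on all 15 arrays, the dim end of the array, and gave no measurable decay. The pairs Smarca2 with Smarca4, Smarca1 with Smarca5 and Arid3a with Arid3b were therefore not tested.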

How the data were processed

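The authors summarised each array and divided every probe set by the 5th percentile of its array. The deposited values are these linear ratios, with no detection p-values. How probe sets were summarised, and with which software, is not stated in the labels, file headers or methods. In place of the authors' detection filter, probe sets had to exceed the array median at 0 min in at least 2 of 3 replicates. This left 12544 of 25175. Symbols came from the platform annotation, and the 1492 probe sets that carry several were left unnamed. All 41 genes were matched to a table of mouse genes (GRCm38.p6).

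Trends and contrasts with 0 min were fitted with limma 3.58.1 (R 4.3.3) on log2 ratios of all 12544 probe sets. The time course was a block, with Benjamini-Hochberg adjustment at 0.05. The block follows the authors, who fitted each time course by itself. Same-numbered arrays deviated together in 29 of 30 pairs (r over 0.1, median 0.362), and arrays of other numbers in 14 of 60. Half-lives and the exact tests over 1728000 arrangements used numpy 2.4.6 and scipy 1.17.1 (Python 3.11.15, pandas 2.3.3, matplotlib 3.10.9). All scripts were tested on simulated data. Depth does not apply to arrays, and their number, 3 per time, limits the precision.

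The 8 steepest and 8 shallowest transcripts past the filter are given in every sample, others by family, pair or list. Members, pairs, lists and rules were chosen with earlier results of these data known. Alternatives covered scaling, the level filter, a pseudocount, the block, the variance model, the decay model, replicates, time points and probe sets, and 4 were added after seeing the data. The immunoprecipitations and the knockdown line were not analysed here.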

Additional observations from a re-analysis of the deposited data

How the results depend on the processing

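The slopes of the 36 transcripts kept their direction and their side of the threshold without the level filter, with a pseudocount of 1, without the replicate block (36 of 36 still fell), with each replicate left out, without the 110 min array of replicate 1 or the 230 min array of replicate 2, with a variance that follows the mean level, and with 1 subtracted from the ratios. Scaling changed them. With arrays divided by their median, 9 lost significance and Arid3a turned to 0.0050 log2 per hr. The median slope became -0.14, against -0.43 with 1 subtracted. Counts lower than at 0 min became 16 at 110 min and 19 at 230 min, 38 of the 67 partner subunits and other SNF2 ATPases fell, and 0 half-lives were reliable. With the 75th percentile in place of the median, the median slope was -0.0025 log2 per hr, 13 transcripts fell and 7 rose, 19 of the 67 fell and 22 rose, 2, 10 and 13 transcripts were lower at 50, 110 and 230 min, and 1 half-life was reliable (287 min). The slopes that turned positive there were those of Smarca4 0.0234, Smarcb1 0.0242, Smarcc1 0.0965, Smarcc2 0.0461, Smarcd3 0.0306, Smarca5 0.0281, Chd3 0.133, Chd6 0.0195, Chd1l 0.0834, Ep400 0.0032, Ino80b 0.0142, Ino80c 0.0784, Atrx 0.0921, Hells 0.0909, Smarcal1 0.0211, Arid3a 0.141 and Arid5a 0.0401 log2 per hr. A scaling adds the same amount to every slope, 0.18 and 0.32 log2 per hr for the median and the 75th percentile.

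At 50 min, 2 transcripts were lower without the level filter, 1 with a pseudocount and 2 with a variance that follows the mean. Without the 110 min array of replicate 1 there were 5, and without the 230 min array of replicate 2 there were 4. The share of all probe sets lower at 50 min was not counted in these settings. These counts therefore cannot be set against that of the whole array, and their cause was not tested. Reliable half-lives numbered 13 of 36 (median 136 min) with a linear fit on log2 ratios (22.3% of all probe sets), 6 (median 71.8 min) with a constant floor of 1 (12.3%) and 4 without the 230 min array of replicate 2 (4.66%). With a replicate left out, where both remaining time courses had to meet the criteria, they numbered 2 to 6 and their median was 78.1 to 124 min.

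Of the 15 pairs, 7 passed without the 230 min arrays and 5 to 9 with a replicate left out. Without the replicate block 10 passed, with Chd6 minus Chd9 lost (adjusted p = 0.092 by a permutation test with 100000 resamples). Without the 230 min arrays Chd7 minus Chd8 turned to -0.19 log2 per hr. Chd1 minus Chd2 turned to 0.10 log2 per hr with 1 subtracted (adjusted p = 0.037). With a replicate left out these pairs ranged from -0.0057 to 0.0628 and from -0.0405 to 0.0245 log2 per hr.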
